A study of Mus musculus with 2 samples.

Results

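The 9 genes described here act in the methylation of lysine 9 of histone H3 (H3K9) in mouse cells. They encode the main enzymes that add the mark, a recruiter of the enzyme SETDB1, and the HP1 proteins that read the mark. They were taken by name (Setdb1, Trim28, Ehmt1, Ehmt2, Suv39h1, Suv39h2, Cbx1, Cbx3 and Cbx5) and all 9 were found among the 22556 genes of the count table. The RNA was from the iXist-ChrX-Dom line, female mouse embryonic stem cells (mESCs) of the strain Dom/129S x Cast. On the Dom/129S allele of Xist, the RNA that silences an X chromosome, a TetOn promoter had taken the place of the gene's own promoter. No doxycycline was given (0 h), so Xist had not been induced, and the series holds 1 group of 2 replicates with no treated or mutant samples. The cells had been grown with LIF on mitomycin C-inactivated mouse fibroblast feeders, which were removed by pre-plating. Nothing in the labels says whether the replicates were separate cultures, so the spread between them may be technical.

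H3K9 methylation marks heterochromatin and silenced repeats. SETDB1 is brought to endogenous retroviruses in ES cells by TRIM28, a corepressor bound by KRAB zinc finger proteins. EHMT1 (GLP) and EHMT2 (G9a) act as a heteromeric enzyme that mono- and dimethylates H3K9 in euchromatin. SUV39H1 and SUV39H2 trimethylate it at pericentromeric repeats, and the chromodomain of the HP1 proteins, encoded by Cbx1 (HP1 beta), Cbx3 (HP1 gamma) and Cbx5 (HP1 alpha), binds the methylated lysine.

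In all, 23716499 fragments were assigned to genes in replicate 1 and 20275749 in replicate 2. A count of 0 allows up to 3 counts, which is 0.126 and 0.148 counts per 1000000 (CPM) in the respective library, and such floors and all intervals given here cover counting error only. Levels are given in TPM, a gene's count divided by its length and rescaled so that each library sums to 1000000, and the length is the exonic one unless another is named. Of the 12 ES cell markers, 11 reached 1 TPM, with a summed level of 5641 TPM in replicate 1 and 4514 TPM in replicate 2. Pou5f1, however, stood at 110 and 17.2 TPM and Dppa5a at 626 and 79.6 TPM. Nanog, at 798 and 749 TPM, and Zfp42, at 807 and 886 TPM, moved far less. In the replicate test described below, 10 of the 12 were lower in replicate 2 and 1 was higher. Of all tested genes, 45.7% were lower and 15.1% higher. Of the 10 fibroblast feeder markers, 3 reached 1 TPM, with summed levels of 284 and 302 TPM that came mainly from Fn1 and Vim. Thy1, also among the 3, stood at 2.27 and 0.176 TPM, from 32 and 2 counts. Lum had 0 counts, and Col1a1, Col1a2, Col3a1, Pdgfrb, Postn and Dcn stayed at or below 0.291 TPM in each library. The label of the samples names mESC to NPC as the cell type, but only 1 of 8 neural precursor markers (Nes, at 3.80 ± 0.182 TPM, SD, n = 2) reached 1 TPM. Sox1, another of the 8, is listed at 0 but lies wholly inside another gene on the same strand, so its level cannot be read. Vim, counted here with the feeder markers at 164 and 182 TPM, is also expressed by neural precursors. In bulk RNA, fewer cells of a type and less RNA per cell cannot be told apart.

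All 9 genes were expressed, and with exonic length 8 of them stood above the median expressed gene. With span length 7 did, since Ehmt1, at 10.8 TPM, was below that median of 13.5 TPM. Their median level was 73.9 TPM in replicate 1 and 62.6 TPM in replicate 2, and the median of their means was 72.0 TPM. The median over all 22124 genes with an exonic length was 1.86 TPM, and over the 12252 genes with a mean of at least 1 TPM it was 18.4 TPM. A mean of 10 TPM was reached by 8 of the 9 genes and by 34.1% of all genes. The range was wide, from 4.78 TPM for Ehmt2 to 502 TPM for Cbx1, a span of 105-fold. From the top, the order of the means was Cbx1, Cbx5, Cbx3, Suv39h2, Setdb1, Trim28, Ehmt1, Suv39h1 and Ehmt2. The replicate ranges of neighbours did not overlap from Cbx1 down to Suv39h2, nor from Ehmt1 down to Ehmt2. Suv39h2 and Setdb1 overlapped, as did Setdb1 and Trim28, and Trim28 and Ehmt1, so the middle of the order was not resolved. No test was run on these neighbours, since for 2 values against 2 the smallest two-sided p of an exact permutation test is 0.333.

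**Figure D1:**
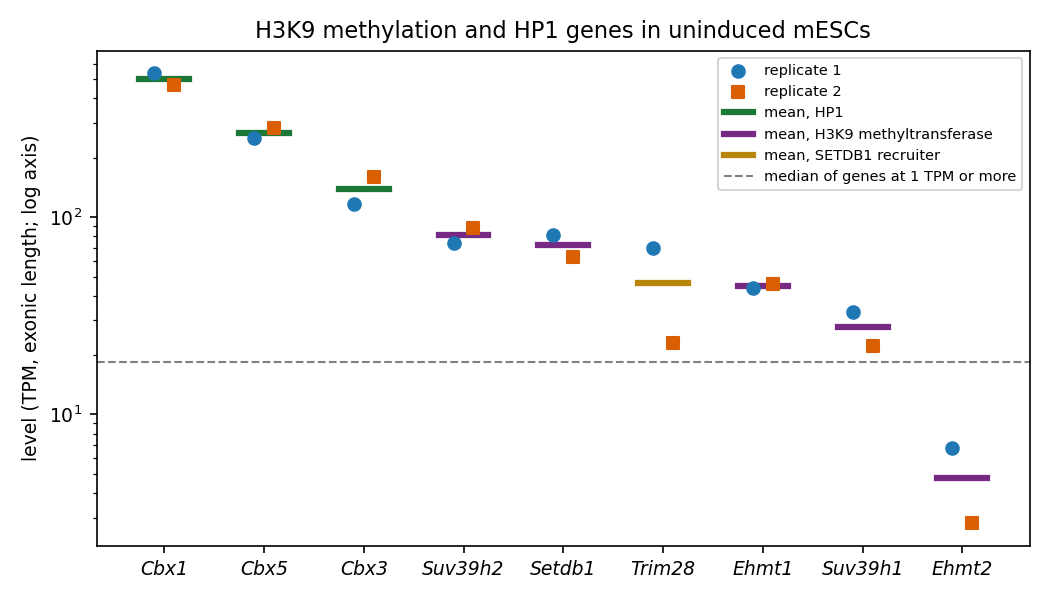
Level of each gene in TPM with exonic length on a log axis, with replicate 1 as circles, replicate 2 as squares, a bar at the mean in the colour of the gene's role, and a dashed line at 18.4 TPM, the median of genes with at least 1 TPM. The 3 HP1 genes lie highest, Ehmt2 lies lowest at 6.76 and 2.81 TPM, and the replicates of Trim28 lie apart at 69.9 and 23.0 TPM.

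With exonic length, the HP1 genes were the most abundant of the set. With span length this held for Cbx1 and Cbx5, and Trim28 and Cbx3 overlapped. Cbx1 (mm10, chromosome 11, 96789135 to 96808640, plus strand) stood at 537 and 467 TPM in replicates 1 and 2, above 98.6% of all genes. Cbx5 (chromosome 15, 103191545 to 103239816, minus strand) followed at 251 and 282 TPM, and Cbx3 (chromosome 6, 51470615 to 51483704, plus strand) at 117 and 160 TPM. The order of the 3 genes was the same in each library and their ranges did not overlap. Their summed level was 904 and 910 TPM in the 2 libraries, and 664 and 721 TPM with the span length explained below. Of this sum, Cbx1 supplied 55.3% ± 5.65 (SD, n = 2), Cbx5 29.4% ± 2.34 and Cbx3 15.3% ± 3.31. Cbx1 exceeded Cbx5 by 2.14-fold in replicate 1 and by 1.65-fold in replicate 2, and it exceeded Cbx3 by 4.58-fold and 2.91-fold. Without division by length, Cbx1 and Cbx5 changed places, at a mean of 376 CPM for Cbx1 and 736 CPM for Cbx5.

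A pair of the HP1 genes starts beside an RNA-binding protein gene that is transcribed away from it. The 5′ end of Hnrnpa2b1 lay 721 bp from that of Cbx3 on the opposite strand, and that of Hnrnpa1 lay 580 bp from that of Cbx5. These genes encode abundant hnRNP proteins of pre-mRNA processing. Hnrnpa2b1 stood at 1031 and 1387 TPM, well above Cbx3 in each library. Hnrnpa1 stood at 431 and 597 TPM, also above Cbx5 in each library. Gm10052, whose 5′ end lay 615 bp from that of Cbx5, had 0 counts. No gene began within 1000 bp of Cbx1 or of any of the other 6 genes on the opposite strand. To show what lies before the HP1 genes, the 250 bases upstream of their RefSeq starts (GRCm38.p6) are given here 5′ to 3′, with each CpG in capitals, since CpG-rich start regions are typical of widely expressed genes.
Cbx1 (chr11:96788885-96789134, plus strand): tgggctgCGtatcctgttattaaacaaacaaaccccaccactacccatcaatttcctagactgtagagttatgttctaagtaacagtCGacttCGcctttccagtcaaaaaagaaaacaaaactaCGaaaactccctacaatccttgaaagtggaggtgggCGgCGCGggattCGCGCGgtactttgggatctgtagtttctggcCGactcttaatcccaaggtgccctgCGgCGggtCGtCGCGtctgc
Cbx3 (chr6:51470366-51470615, plus strand): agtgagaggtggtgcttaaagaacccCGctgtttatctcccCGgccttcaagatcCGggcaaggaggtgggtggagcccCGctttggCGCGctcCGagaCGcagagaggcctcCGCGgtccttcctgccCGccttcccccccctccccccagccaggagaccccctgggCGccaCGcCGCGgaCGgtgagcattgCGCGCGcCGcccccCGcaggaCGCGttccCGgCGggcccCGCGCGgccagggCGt
Cbx5 (chr15:103239853-103240102, minus strand): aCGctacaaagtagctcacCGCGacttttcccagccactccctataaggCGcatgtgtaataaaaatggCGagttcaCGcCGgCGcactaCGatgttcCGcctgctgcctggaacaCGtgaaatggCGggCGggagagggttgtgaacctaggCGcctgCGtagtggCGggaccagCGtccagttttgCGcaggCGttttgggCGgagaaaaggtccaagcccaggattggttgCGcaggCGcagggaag
These windows held 16 CpGs for Cbx1, 29 for Cbx3 and 22 for Cbx5, against a median of 6 over 32851 such windows, 92.1% of which held at least 1 CpG. The count of Cbx3 was above that of 93.2% of all windows, that of Cbx5 above 85.2% and that of Cbx1 above 74.6%. CpG-rich windows were not particular to the HP1 genes. Nearest the starts in the count table, Suv39h2 had 27 CpGs, Ehmt1 26, Ehmt2 18, Trim28 17, Setdb1 13 and Suv39h1 11. A further start of Ehmt2 had 36, and 1 of Suv39h1 had 25. The RefSeq start of Cbx5 lies 36 bp upstream of the start in the count table. RefSeq lists a further start for Cbx3, with 31 CpGs in its window, and for Cbx5, with 7, which is fewer than the 16 of Cbx1. The windows shown are those nearest the starts in the count table.

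With exonic length, Suv39h2 and Setdb1 were the highest of the methyltransferase genes and Ehmt2 was the lowest. Setdb1 (chromosome 3, 95323524 to 95357202, minus strand) stood at 81.5 and 62.6 TPM in replicates 1 and 2. Trim28 (chromosome 7, 13024151 to 13031032, plus strand), the recruiter, stood at 69.9 and 23.0 TPM, so it was close to Setdb1 in replicate 1 and 2.72-fold below it in replicate 2. The log2 ratio of Trim28 over Setdb1 was −0.83 ± 0.87 (SD, n = 2). Its sign was the same in each library, but its size was within the spread between them. Trim28 varied more between replicates than any of the other 8 genes, with an SD of 71.4% of its mean.

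With exonic length, the 2 genes of the G9a/GLP enzyme were unequal, and with the span length explained below they were much less so. Ehmt1 (chromosome 2, 24790768 to 24919609, minus strand) stood at 43.9 and 45.7 TPM, an SD of 2.77% of the mean and the smallest of the set. Ehmt2 (chromosome 17, 34898491 to 34914050, plus strand) stood at 6.76 and 2.81 TPM, from 209 and 70 counts. Ehmt1 exceeded Ehmt2 by 6.50-fold in replicate 1 and 16.2-fold in replicate 2, a log2 ratio of 3.36 ± 0.93 (SD, n = 2). Setdb1 exceeded Ehmt2 by 12.1-fold and 22.2-fold. Ehmt2 was the member with the highest GC content, 60.8% in its longest transcript, which is above 96.9% of genes. Of the expressed genes, the 378 with at least 60% GC had medians of 3.94 and 2.08 TPM, so Ehmt2 was above that median in each library. The 3142 genes below 45% GC had medians of 56.3 and 65.3 TPM. The part of GC content in the low value of Ehmt2 was not tested.

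The SUV39H genes were also unequal, with the X-linked gene the lower. Suv39h2 (chromosome 2, 3455814 to 3474986, minus strand) stood at 73.9 and 88.2 TPM. Suv39h1 (X chromosome, 8061170 to 8074760, minus strand) stood at 33.0 and 22.3 TPM. Suv39h2 exceeded Suv39h1 by 2.24-fold in replicate 1 and 3.96-fold in replicate 2, a log2 ratio of Suv39h1 over Suv39h2 of −1.58 ± 0.58 (SD, n = 2). The 5 methyltransferase genes summed to 239 and 222 TPM. Of this sum, Suv39h2 supplied 35.4% ± 6.30 (SD, n = 2), Setdb1 31.2% ± 4.14 and Ehmt1 19.5% ± 1.59. Suv39h1 supplied 11.9% ± 2.65 and Ehmt2 2.05% ± 1.10.

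Suv39h1 is the member on the chromosome that Xist silences once it is induced. The study asks how starting expression relates to that silencing, for which X-linked genes are divided here into low, medium and high groups of like size. Among the 530 X-linked genes with at least 1 TPM, Suv39h1 ranked 302 from the top and fell in the medium group, which ran from 13.8 to 83.3 TPM. Its rank was 281 of 540 genes in replicate 1 and 315 of 523 genes in replicate 2, the medium group in each. Its mean of 27.6 TPM lay below the median of these genes, 37.4 TPM, but this direction depended on the settings. It lay above the median with the longest transcript (41.6 against 36.7 TPM), with the span length described below (52.3 against 25.7 TPM), and with exonic length over genes of at least 0.1 TPM (27.6 against 18.6 TPM). The counts used here are not split by allele.

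**Figure D2:**
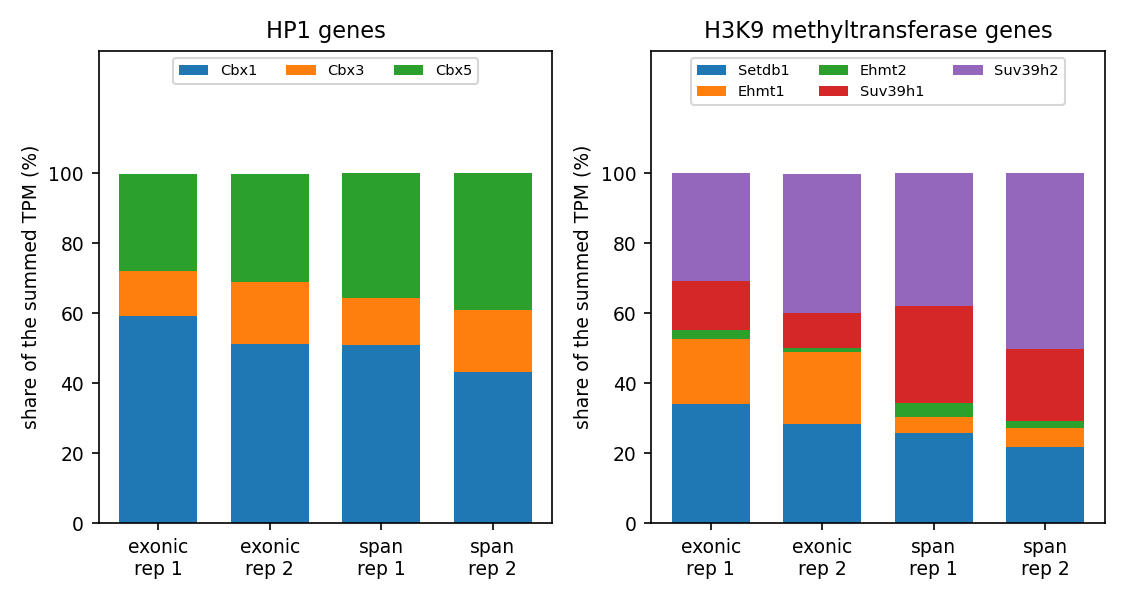
Share of each gene in the summed TPM of the 3 HP1 genes (left) and of the 5 methyltransferase genes (right), in percent, for each replicate with exonic and with span length. Cbx1 is the largest part of the HP1 sum in all 4 bars, from 59.3% to 43.2%, and Ehmt2 is at most 4.08% of the methyltransferase sum.

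The order below the top pair depended on the length. The count table gives a span length that includes introns, and fragments in introns would be counted too, although the study describes these libraries as holding few of them. With span length, Ehmt1, whose 128842 bp span is 21.6 times its exonic length, fell from a mean of 44.8 TPM to 10.8 TPM. Trim28, with a span of 6882 bp and a ratio of 2.12, stood at 113 TPM in place of 46.5 TPM, with 167 TPM in replicate 1 and 58.0 TPM in replicate 2. Suv39h1 stood at 52.3 TPM in place of 27.6 TPM and at rank 193 among X-linked genes, and was still in the medium group, though over X-linked genes of at least 0.1 TPM it was in the high group. With span length Cbx1 and Cbx5 still led, at 325 and 259 TPM, and Ehmt2 was last at 6.52 TPM. Trim28 came after Cbx5 and ahead of Cbx3 at 109 TPM and Suv39h2 at 95.5 TPM, with ranges that overlapped from each to the next. Suv39h1 and Setdb1, at 52.3 and 51.7 TPM, overlapped too. With the longest transcript, the order by exonic length was kept, but the ranges of Ehmt1 and Suv39h1 overlapped.

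**Figure D3:**
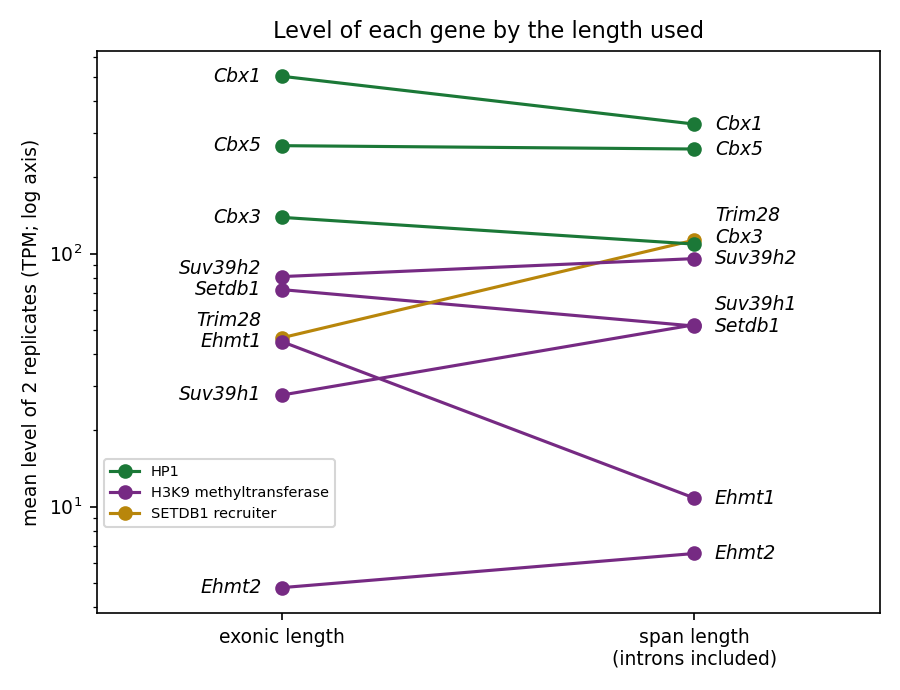
Mean level of each gene over the 2 replicates, in TPM on a log axis, with exonic length (left) and with span length (right), coloured by role. The lines of Ehmt1 (44.8 to 10.8 TPM) and Trim28 (46.5 to 113 TPM) cross those of other genes, while Cbx1 stays highest and Ehmt2 lowest.

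Ratios within a pair kept their sign with either length in 6 of 7 pairs. With span length the mean log2 ratio of Ehmt1 over Ehmt2 was 0.85 in place of 3.36, with 0.19 and 1.51 in the replicates, so in replicate 1 the genes were nearly level. The ratio of Cbx1 over Cbx5 shrank to a mean log2 of 0.33, with 0.52 and 0.15 in the replicates. The ratio of Trim28 over Setdb1 changed sign, to a log2 of 0.94, so which of these genes is the more abundant cannot be read from this table. Suv39h2 was above Suv39h1 with span length too, the log2 ratio of Suv39h1 over Suv39h2 being −0.47 and −1.29 in the replicates.

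**Figure D4:**
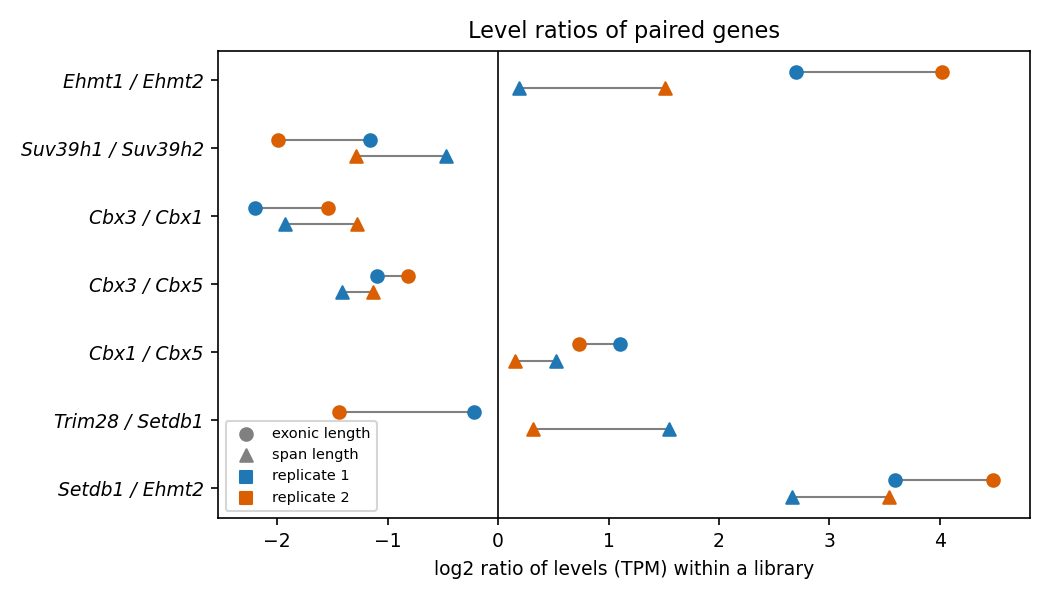
Log2 ratio of the TPM levels of paired genes within each library, with exonic length (circles) and span length (triangles), replicate 1 in blue and replicate 2 in orange. Trim28 over Setdb1 lies below 0 with exonic length (−0.22 and −1.44) and above 0 with span length (1.55 and 0.32), and the other 6 pairs stay on 1 side of 0.

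The replicates were next compared gene by gene, to ask whether they differed beyond counting noise. The 2 counts of a gene were tested against the ratio of library totals with a two-sided exact binomial test, adjusted by Benjamini-Hochberg over the 14536 genes with at least 10 counts, which compares these libraries and not conditions. Of the 9 genes, 8 differed beyond counting noise at an adjusted p of 0.05, where 60.8% of all tested genes did. Of these, 5 were lower in replicate 2 (45.7% of all tested genes were) and 3 were higher (15.1% were). A test of counts passes smaller differences at higher depth: Cbx5, with 16948 and 15345 counts, passed at 1.06-fold. The shares over all tested genes, here and below, were not matched for depth to the genes set beside them. With edgeR TMM factors, 9 of the 9 genes and 57.7% of all tested genes passed, 5 lower and 4 higher, where 30.8% and 27.0% of all genes were. With DESeq2 size factors, 8 of the 9 and 57.8% of all passed, 4 in each direction, where 26.1% of all genes were lower and 31.6% higher. With a minimum of 1 count, 8 of the 9 and 48.5% of all genes passed (36.4% lower and 12.1% higher), and with a minimum of 10 counts in each library, 8 of the 9 and 65.2% of all (47.7% lower and 17.5% higher). The median log2 ratio of all tested genes was −0.31 with library totals, −0.09 with TMM factors and 0.00 with size factors, so each ratio below is read relative to −0.31.

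Trim28 differed most, at 71.9 CPM in replicate 1 and 22.2 CPM in replicate 2, a log2 ratio of −1.69 (95% exact interval −1.85 to −1.54, adjusted p = 2.15e-129 in the exact test). Ehmt2 followed at 8.81 and 3.45 CPM, a log2 ratio of −1.35 (−1.76 to −0.95, exact adjusted p = 3.13e-12). Suv39h1 had a log2 ratio of −0.65 and Setdb1 of −0.47. The remaining genes moved less or went the other way relative to the median gene. Cbx1 was close to it at −0.29. Ehmt1 had a log2 ratio of −0.03 (−0.13 to 0.06), which did not pass (exact adjusted p = 0.595), but with TMM factors it passed at 0.19 (exact adjusted p = 1.89e-04). Cbx1 likewise turned to 0.02 with size factors, which did not pass (exact adjusted p = 0.386). Cbx5 stood at 0.08, Suv39h2 at 0.17 and Cbx3 at 0.37 (0.27 to 0.46, exact adjusted p = 1.21e-13).

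These differences varied with GC content, with exceptions such as Ehmt1. Over the 9 genes, Spearman's rho between the GC content of the longest transcript and the log2 ratio was −0.87, and over the 9243 autosomal genes whose counts reached 50 in both libraries it was −0.66. These correlations are descriptions across genes of the same 2 libraries. With library totals, the 3 genes that passed as higher in replicate 2 were Cbx3, Cbx5 and Suv39h2, at 41.1%, 42.6% and 43.0% GC. The most reduced genes, Trim28 and Ehmt2, had 59.6% and 60.8%. Ehmt1, at 51.2% GC, also passed as higher with TMM factors (0.19) and with size factors (0.28). With the GC trend of autosomal genes as the expected ratio, 5 of the 9 genes passed, 3 lower and 2 higher, where 44.6% of all tested genes did (21.6% lower and 23.0% higher). The remainder was −0.91 for Trim28 (exact adjusted p = 2.01e-35), −0.58 for Ehmt2 (exact adjusted p = 0.00783) and −0.24 for Suv39h1 (exact adjusted p = 0.00160). Cbx3 kept 0.18 (exact adjusted p = 7.67e-04). Ehmt1, at 51.2% GC, stood 0.46 above the trend (exact adjusted p = 2.19e-20). Setdb1, Suv39h2, Cbx1 and Cbx5 stayed within 0.09 of the trend and did not pass. Among the ES cell markers, the remainder was −2.68 for Dppa5a and −1.99 for Pou5f1, but 0.21 for Zfp42 and 0.53 for Klf4.

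**Figure D5:**
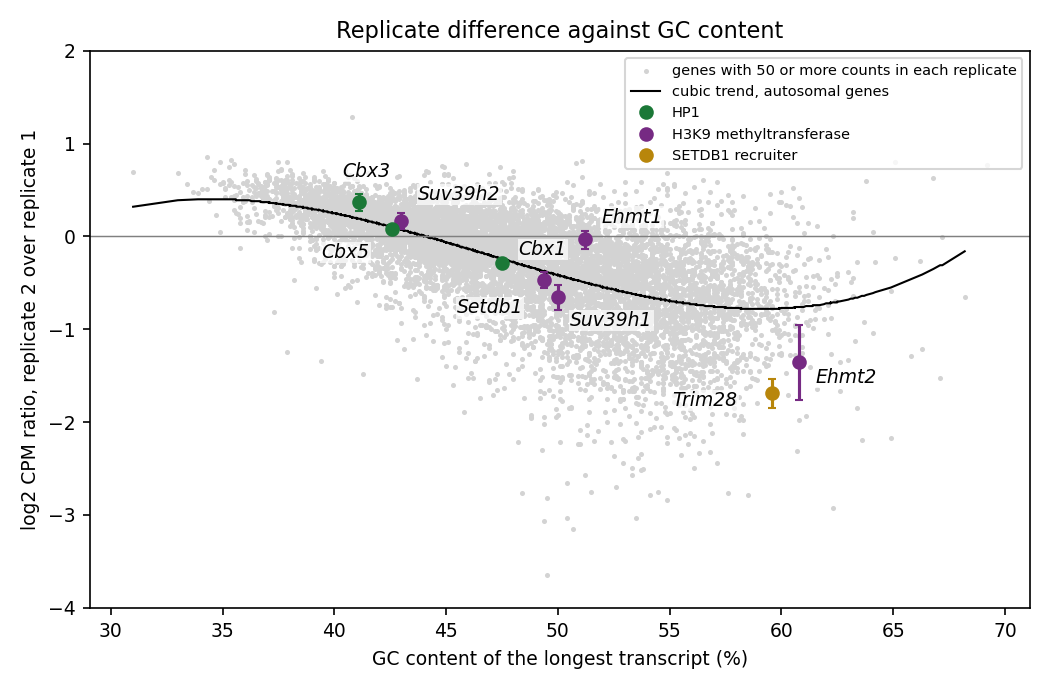
Log2 CPM ratio of replicate 2 over replicate 1 against the GC content of the longest transcript in percent, for genes whose counts reached 50 in both replicates (grey), with the cubic trend of autosomal genes (line) and the 9 genes with 95% exact intervals, coloured by role. Cbx3 at 41.1% GC lies above 0 at 0.37, and Trim28 and Ehmt2 lie below the trend at −1.69 and −1.35.

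Some counts could be shared with other loci. Of the 50-base words of the longest Cbx3 transcript, 28.9% also occur in transcripts from elsewhere in the genome and 24.6% in annotated pseudogenes, 13 of which share at least 1 word. The level of Cbx3 is therefore uncertain, since such reads can be lost or misplaced. For its chromatin RNA libraries the study kept only reads with a single match, and whether the same was done for these mRNA libraries is not stated. For Setdb1 the share from elsewhere was 6.08%, for Cbx5 it was 0.0228%, and for the other 6 genes it was 0. No such word was shared between the 9 genes, the 3 HP1 paralogues included. No listed gene overlapped any of the 9 on the same strand, where fragments would have been ambiguous. On the opposite strand, the span of Dclre1c, at 17.6 TPM, covered 70.4% of the exonic bases of Suv39h2, which strand-specific counting keeps apart. The antisense gene Gm14820 shares 20.5% of the words of Suv39h1 at the same locus and is likewise on the other strand.

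Of 33 genes listed as partners of these proteins or as linked to H3K9 methylation, 32 reached 1 TPM and 29 reached 10 TPM. Of all genes, 55.4% and 34.1% did. The median of the 33 was 86.4 TPM. In the replicate test 24 of the 33 passed, 14 higher and 10 lower in replicate 2, where 60.8% of all tested genes passed, 15.1% higher and 45.7% lower. With the GC trend, 22 of the 33 passed, 19 higher and 3 lower, where 44.6% of all tested genes passed, 23.0% higher and 21.6% lower. The split by direction thus changed with how GC content was treated. The list of SETDB1 partners and the HUSH silencing complex, in which Setdb2 is also counted, held 7 genes with a median of 113 TPM. They ran from 33.1 ± 0.580 TPM (SD, n = 2) for Atf7ip, which stabilises SETDB1, to 415 ± 123 TPM for Fam208a (TASOR), a HUSH subunit. Of the 7, 5 passed the replicate test, and these 5 (Fam208a, Atf7ip2, Pphln1, Mphosph8 and Morc2a) were higher in replicate 2, where 15.1% of all tested genes were. With the GC trend 6 of the 7 were higher, where 23.0% of all tested genes were, Atf7ip passing too at 0.20. The 4 partners of G9a/GLP had a median of 89.9 TPM, with Zfp644 highest at 161 ± 18.8 TPM and Wiz lowest at 3.01 ± 0.362 TPM, and Zfp644 and Cdyl2 passed. The log2 ratio of Zfp644 was 0.15 with library totals and −0.01 with the GC trend, which did not pass, and that of Cdyl2 was −0.19 and turned to 0.52. With that trend 3 of the 4 passed, all higher, where 23.0% of all tested genes were, since Wiz (0.43) and Cdyl (0.47) passed too. Wiz, a zinc finger protein of that complex, stood at 3.26 and 2.75 TPM beside 6.76 and 2.81 TPM for Ehmt2, and its longest transcript had 57.6% GC.

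The 11 genes of TRIM28 partners and silencing chromatin had a median of 129 TPM. Atrx, a chromatin remodeller, was highest at 571 ± 110 TPM. Daxx, the histone chaperone that works with it, was lowest at 13.7 and 6.42 TPM, a log2 ratio of −1.18 between replicates (exact adjusted p = 8.13e-14), and of −0.44 with the GC trend (exact adjusted p = 0.0137). Of the 11, 5 were higher and 4 lower in replicate 2, where 15.1% and 45.7% of all tested genes were. The other lower genes, Chaf1a, Chaf1b and Dnmt1, did not pass with the GC trend, with which 5 of the 11 were higher and 1 lower, where 23.0% and 21.6% of all tested genes were. The 8 HP1 partners had a median of 59.4 TPM, from 3.69 ± 1.73 TPM for Ahdc1 to 366 ± 43.6 TPM for Lbr, the lamin B receptor, which binds HP1 at the nuclear envelope. Of these, 3 were higher and 4 lower in replicate 2, where 15.1% and 45.7% of all tested genes were. Chd4, a remodeller, had a log2 ratio of −1.10, and of −0.50 with the GC trend, which passed. Ahdc1 had −1.08, and −0.30 with the GC trend, which did not pass (exact adjusted p = 0.138). With that trend 4 of the 8 were higher and 2 lower, where 23.0% and 21.6% of all tested genes were, Adnp turning from −0.14 to 0.14 and Sgol1 from 0.08 to −0.08, while Incenp lost its call and Pogz gained one at 0.34. Of 3 PR/SET genes linked to H3K9 methylation, Prdm2 stood at 33.2 ± 1.22 TPM and Mecom at 0.668 ± 0.0423 TPM, and Prdm2 alone of the 3 passed. Its log2 ratio was −0.16, which is above the median of −0.31, and 0.31 with the GC trend.

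For scale, the 11 H3K9 demethylase genes, which remove the mark, had a median of 49.1 TPM, between 1.78 and 308 TPM, and the 6 core PRC2 genes, which write the other main repressive methyl mark of histone H3, had a median of 428 TPM. The 9 genes, at 72.0 TPM, lay between these medians, and the differences were not tested. Polycomb chromodomain genes, relatives of the HP1 genes in the Cbx family, were lower than all 3 HP1 genes where they are given here. Cbx7 stood at 21.5 and 13.8 TPM and Cbx2 at 1.78 and 0.695 TPM. Cbx8 had 0 counts in each library, and Cbx6 is listed at 0 but lies wholly inside another gene on the same strand, so its level cannot be read.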

How the data were processed

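Poly(A) RNA was isolated with oligo(dT) beads and made into stranded libraries, 1 for each of 2 replicates of uninduced iXist-ChrX-Dom mESCs. The deposited table holds fragment counts that the authors made by running featureCounts 1.5.2, per the file headers, reverse-stranded, over transcript spans summarised by gene on mm10, so intronic fragments count too. The submitters' processing notes also name Bowtie2 2.3.2 and STAR 2.4.2a, which the study describes for its chromatin RNA libraries (rRNA reads removed, N-masked mm10, single matches only). Whether these mRNA libraries were aligned in that way is not given in the sources used here. Columns were matched to samples by the numbers in the sample descriptions, which carry a letter b that the columns lack. The deposited length column, another kind of value, equalled the union of the spans for all 22556 genes.

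TPM was computed here from the deposited counts and averaged over replicates. Exonic length, the union of exons in GENCODE M21 basic (GRCm38, the assembly of mm10), was available for 22124 genes (98.1%), 21237 by symbol and 887 by synonym. The study does not state its length, and exonic length was preferred because poly(A) RNA was sequenced. Span length, the longest transcript and CPM were alternatives. Replicates were compared by the exact binomial test described in the text, also with edgeR 4.0.16 TMM factors, DESeq2 1.42.0 size factors, other count minima and a cubic GC trend. The test of DESeq2 or edgeR itself needs a second group. On simulated counts with 200 changed genes, 63.5% of 2-fold changes were called, and 94.7% of those with at least 100 counts. The simulation held counting noise only, and 7.30% of its calls were false, above the 5% aimed at. Log2 ratios between replicates were taken after adding 0.5 counts. Software was Python 3.11.15, scipy 1.17.1 and R 4.3.3.

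All members were named. From the lists of partners, the highest and lowest gene by mean TPM were named, with genes at 0 counts, genes past the replicate test with a log2 ratio beyond 1 in size, and genes that start within 1000 bp of a member on the opposite strand. The Polycomb Cbx genes, the markers, Dclre1c, Gm14820 and other list genes that passed a test were named after their values were seen. The members and lists were chosen with earlier results of these data known. Bins of GC content and the shares of the methyltransferase sum were added after the data had been seen. Promoter sequences are from RefSeq (GRCm38.p6), which had an entry for 9 of the 9 genes. Protein sequences were not used here. Values of 1 listed gene are not reported here.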

Additional observations from a re-analysis of the deposited data

How the results depend on the processing

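Of 137 alternatives over 32 results, 94 kept a result within the measure set for it (the SD of the replicates for a value, direction and threshold for a test, a factor of 1.5 for a count), 33 moved a value, 3 weakened a test and 7 reversed a sign. With span length, the median level of the 9 genes was 95.5 TPM, and the mean log2 ratio was 0.85 for Ehmt1 over Ehmt2, −0.88 for Suv39h1 over Suv39h2, −1.27 for Cbx3 over Cbx5, 0.33 for Cbx1 over Cbx5, 0.94 for Trim28 over Setdb1 and 3.10 for Setdb1 over Ehmt2. The shares of the HP1 sum were then 47.1% for Cbx1 and 37.3% for Cbx5, and the rank of Suv39h1 was 193. With the longest transcript, the log2 ratio was −0.90 for Suv39h1 over Suv39h2 and 1.30 for Cbx1 over Cbx5, the shares were 61.6% and 25.1%, and the rank was 255. Without a length (CPM), the log2 ratio was −3.15 for Cbx3 over Cbx5 and −0.98 for Cbx1 over Cbx5, a reversal of sign for the latter pair. Without replicate 1 or 2, the median level lay between 62.6 and 73.9 TPM. With the GC trend, 5 of the 9 genes differed between replicates, since Setdb1, Suv39h2, Cbx1 and Cbx5 no longer passed and Ehmt1 did. The log2 ratio of Ehmt1 between replicates turned to 0.19 with TMM factors, 0.28 with size factors and 0.46 with the GC trend, that of Cbx1 to 0.02 with size factors, and that of Cbx5 to −0.02 with the GC trend. Another length changes each gene's divisor by construction, and the cause of the other changes was not tested.

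No paired analysis was possible because all libraries belong to a single group. With 2 libraries and no second condition, no value here says how these genes respond to anything. Depth is lowest for Ehmt2, at 209 and 70 counts. The spread between replicates limits Trim28 and Ehmt2 most, with an SD of 71.4% and 58.3% of the mean.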
